A study of Mus musculus with 69 samples.

Results

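The 10 genes described here belong to the antioxidant program of the transcription factor NRF2 and were read by their symbols, Nfe2l2, Keap1, Nqo1, Gclc, Gclm, Txnrd1, Srxn1, Gsr, Gpx3 and Slc7a11. All 10 were found among the 24523 genes with a count, 0 included, listed for every kidney library, and all 10 passed the filter of at least 100 counts in each comparison. Kidneys of NZB/W F1 mice, hybrids in which lupus nephritis arises spontaneously, were perfused with PBS and sequenced as whole-organ RNA, 1 library per mouse, at Zeitgeber times (ZT, hours after lights on). The 30 young mice were 12 weeks old, and 7, 4, 4, 7, 4 and 4 of them were collected at ZT0, ZT4, ZT8, ZT12, ZT16 and ZT20. The 27 nephritic mice (7, 4, 4, 6, 3 and 3 at the same times) were taken 2 to 3 weeks after proteinuria exceeded 300 mg/dl, before renal failure. The 8 remission mice, 4 at ZT0 and 4 at ZT12, had become proteinuric, received cyclophosphamide once at 50 mg/kg with 6 doses of CTLA4Ig (200 ug) and anti-CD40L (250 ug) over 2 weeks, and were taken 8 weeks later with proteinuria at or under 30 mg/dl. Nephritic and remission mice were older than young mice, so age and disease cannot be told apart in these comparisons.

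NRF2, encoded by Nfe2l2, is a transcription factor that is held in the cytoplasm and targeted for degradation by the adaptor protein KEAP1. Oxidants and electrophiles modify KEAP1, after which NRF2 accumulates, enters the nucleus, pairs with a small MAF protein and binds antioxidant response elements near its target genes. Control is largely at the protein level, which RNA counts do not show. The targets supply cystine and glutathione, reduce oxidised glutathione, thioredoxin and peroxiredoxins, and detoxify quinones. The kidney tubule, with its dense mitochondria, is a major site of this chemistry.

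The promoters are shown because the core of the antioxidant response element, TGACNNNGC, is the sequence that members of this program can share. RefSeq entries of GRCm38.p6 gave 10 promoters, 250 bases before to 50 bases after the start site, for 8 of the 10 genes (3 promoters for Txnrd1), and held none for Gclc or Gsr. Read on both strands, the core was in 4 of these 10 promoters, and in 12.4% of all 32851 promoters of that length. The windows are written 5′ to 3′ on the gene's strand, with the core in capitals and 10 bases on each side, and a match is a description of the letters alone.
Nfe2l2: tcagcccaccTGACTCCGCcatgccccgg
Gclm: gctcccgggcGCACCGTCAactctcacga
Txnrd1: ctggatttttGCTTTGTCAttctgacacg
Srxn1: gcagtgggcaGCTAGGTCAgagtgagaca
The Nfe2l2 window lies at chr2:75704885-75704913 on the minus strand, with the core on the strand of the gene and its first base at -240 from the start site. The other three lie on the plus strand with the core on the opposite strand. The Gclm window is at chr3:122245413-122245441 (core from -134), the Txnrd1 window at chr10:82859104-82859132 (from -92, in 1 of its 3 promoters) and the Srxn1 window at chr2:152105542-152105570 (from +29, after the start site). The promoters of Keap1, Nqo1, Gpx3 and Slc7a11 did not hold these letters in this stretch.

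Total counts per library were 25257530 to 48075977 in young and nephritic mice and 13311278 to 21849912 in remission mice. The labels give no batch, and the remission and repeat libraries were taken here to form a run of their own. The young and nephritic libraries form 2 RNASeq sets. Set 1 holds 6 young and 5 nephritic mice, all at ZT0 or ZT12, and Set 2 holds the other 24 and 22. In 8 Set 2 libraries (7 young, 1 nephritic) the summed level of 4 adrenal genes exceeded 100 CPM. The comparison of nephritic with young mice over all hours, the tests over time and the interaction were therefore also computed without them. The tests at each hour, the fits by set and the relations across mice were not. A second library was sequenced from 4 mice and was placed in the remission run. The repeat of nephritic mouse RX11RU lay nearer to mouse RX11LU (r = 0.997 across genes) than to its own original (r = 0.985). The clock gene Arntl was read in remission mice as counts over the library total, without normalisation factors. Remission mouse s9, labelled ZT12, had Arntl at 27.7 CPM, within the 22.5 to 29.9 CPM of the ZT0 mice. The other ZT12 mice had 3.23 to 4.95 CPM. The 8 proximal tubule markers were well detected in every library, with sums of 11910 to 19963 CPM in young, 2384 to 15171 CPM in nephritic and 8515 to 13938 CPM in remission kidneys.

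Levels are given as normalised CPM, counts scaled to library size, and levels of different genes are compared as CPM per kilobase of exon. Gpx3, the selenium-dependent peroxidase that the proximal tubule secretes into plasma, had the highest level by far in all groups, 12835 ± 2213 CPM per kilobase (SD, n = 30) in young mice. Gclc, the catalytic subunit of glutamate-cysteine ligase, followed at 72.7 ± 27 CPM per kilobase, and Gsr, glutathione reductase, at 67.8 ± 13 CPM per kilobase. These neighbours did not separate, since Gclc was the higher in 18 of 30 young mice and Gsr in 19 of 27 nephritic mice. Gclm, the modifier subunit of the ligase, came next at 37.2 ± 6.20 CPM per kilobase. Nfe2l2 (28.8 ± 2.30) and Txnrd1, cytosolic thioredoxin reductase (28.6 ± 2.07), were level on the same scale, with Nfe2l2 the higher in 14 of 30 young mice. Nqo1, which reduces quinones, stood at 24.9 ± 3.43 CPM per kilobase. Srxn1, sulfiredoxin, which repairs overoxidised peroxiredoxins (15.8 ± 2.94), and Keap1 (15.5 ± 1.13) overlapped in level. Slc7a11, the cystine importer of system xc-, was near the floor of detection at 0.0203 ± 0.0116 CPM per kilobase. Its raw counts were 2 to 24 in young, 6 to 83 in nephritic and 2 to 24 in remission libraries, so its changes carry more counting error than those of the other members.

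**Figure D1:**
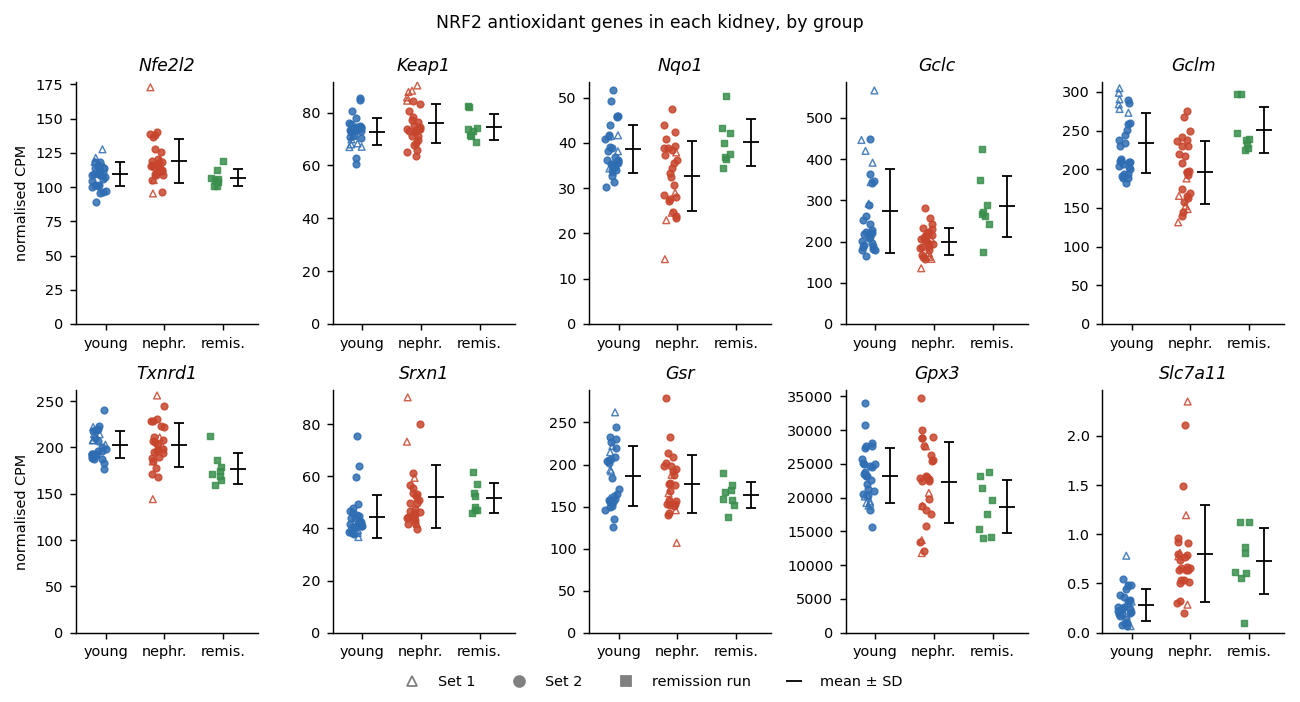
Normalised CPM (y axis, from 0) of each of the 10 genes in every young, nephritic and remission kidney, with triangles for Set 1, circles for Set 2, squares for the remission run and the mean ± SD beside them. Slc7a11 was higher in nephritic than in young kidneys, and Gclc and Gclm of the Set 1 young mice sat at the top of their panels.

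The comparison of nephritic with young kidneys over all 6 time points asks whether the level of these genes differs in active disease. Slc7a11, Srxn1 and Nfe2l2 rose, and Gclc, Gclm and Nqo1 fell. Of the 10 members, 6 passed an adjusted p of 0.05 in edgeR's quasi-likelihood test with Benjamini-Hochberg adjustment, where 62.1% of all 17521 genes passed, 28.1% higher and 33.9% lower. The share of members was thus near that of all genes. The median log2 change was -0.05 over the members and -0.03 over all genes.

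Of the regulators, Nfe2l2 was 88.8, 110 and 128 CPM (lowest, median and highest) in young mice and 95.3, 116 and 173 CPM in nephritic mice. The groups overlapped, with 6 of 27 nephritic mice above the young range and 20 above the young median. Its log2 change was 0.11 (SE 0.04, adjusted p = 0.0129). Keap1 was 60.5, 73.1 and 85.7 CPM in young mice and 63.6, 74.0 and 90.3 CPM in nephritic mice. Its log2 change of 0.04 (SE 0.03) did not pass (adjusted p = 0.298).

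Of the genes for cystine and glutathione supply, Slc7a11 had the largest change among the members. It was 0.066, 0.254 and 0.782 CPM in young mice and 0.197, 0.669 and 2.35 CPM in nephritic mice, and 26 of 27 nephritic mice lay above the young median and 10 above the young range. The log2 change was 1.46 (SE 0.19, adjusted p = 5.32e-09). The second highest nephritic value came from mouse RX11RU. As counts over the library total, without normalisation factors, its original library gave 2.20 CPM and its repeat 0.40 CPM. Gclc was 165, 226 and 567 CPM in young mice and 135, 201 and 282 CPM in nephritic mice, with a log2 change of -0.40 (SE 0.09, adjusted p = 0.000276). Gclm was 182, 222 and 305 CPM in young mice and 131, 196 and 275 CPM in nephritic mice, with a log2 change of -0.27 (SE 0.07, adjusted p = 0.000517). Below the young range lay 11 of 27 nephritic mice for Gclm and 5 for Gclc. Over all time points of Set 2 alone, neither Gclc nor Gclm passed.

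Of the reductases and peroxidases, Srxn1 was 36.7, 41.8 and 75.4 CPM in young mice and 39.7, 49.7 and 90.3 CPM in nephritic mice. It exceeded the young median in 25 of 27 nephritic mice, and its log2 change was 0.21 (SE 0.07, adjusted p = 0.00637). Gsr (log2 change -0.09, SE 0.07, adjusted p = 0.243) and Gpx3 (-0.09, SE 0.09, adjusted p = 0.392) did not pass. Txnrd1 averaged 203 CPM in young and in nephritic mice, with a log2 change of -0.01 (SE 0.04, adjusted p = 0.785). Its SD was 14.7 CPM in young and 24.2 CPM in nephritic mice. Nqo1 was 30.3, 37.5 and 51.7 CPM in young mice and 14.3, 33.3 and 47.5 CPM in nephritic mice. Nephritic mice fell below the young range in 11 of 27 cases, and the log2 change of Nqo1 was -0.27 (SE 0.07, adjusted p = 0.0011).

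Cell type markers moved in the same comparison. All 8 proximal tubule markers were lower (median log2 change -0.73), and all 5 tubular injury markers (3.05) and all 6 macrophage and myeloid markers (2.45) were higher. In whole-kidney RNA, fewer cells of a type and less RNA per cell cannot be told apart, and the part of these markers in the changes of the members was not tested. Without the 8 libraries with adrenal genes, 6 members again passed and the log2 change of Srxn1 was 0.29 (adjusted p = 6.51e-05).

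The size of several changes depended on the RNASeq set. At ZT0 and ZT12, where both sets have mice, the fall of Gclc and Gclm and the rise of Keap1 and Srxn1 were found in Set 1, and the difference between the sets passed for these 4 genes, where 35.1% of all genes passed it. The fits by set were added after the data were seen, and were not repeated without the 8 Set 2 libraries with adrenal genes.

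Gclc was 135, 158, 162, 172 and 206 CPM in the 5 nephritic mice of Set 1 against 292 to 567 CPM (median 406) in its 6 young mice, with no overlap. In Set 2 it was 201 to 282 CPM (median 219) in 8 nephritic mice and 189 to 364 CPM (median 216) in 8 young mice. The log2 change of Gclc was -1.28 (SE 0.17, adjusted p = 0.000144) in Set 1 and -0.02 (SE 0.12, adjusted p = 0.913) in Set 2, a difference of 1.26 (SE 0.20, adjusted p = 7.53e-05). The nephritic medians of the sets thus lay nearer each other than the young medians. Gclm behaved alike, at 131, 148, 152, 166 and 188 CPM in nephritic mice of Set 1 against 273 to 305 CPM in its young mice, and 169 to 268 CPM against 189 to 285 CPM in Set 2. Its log2 change was -0.85 (SE 0.09, adjusted p = 3.76e-05) in Set 1 and 0.06 (SE 0.09, adjusted p = 0.62) in Set 2, and the difference was 0.91 (SE 0.13, adjusted p = 2.95e-05).

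Keap1 was 84.5, 85.8, 87.8, 88.3 and 90.3 CPM in nephritic mice of Set 1 and 66.9 to 71.2 CPM in its young mice, again without overlap. The log2 change of Keap1 was 0.36 (SE 0.05, adjusted p = 0.000184) in Set 1 and 0.00 (SE 0.06, adjusted p = 0.992) in Set 2, with a difference of -0.35 (SE 0.07, adjusted p = 0.000754). Srxn1 was 41.6, 51.7, 59.4, 73.3 and 90.3 CPM in nephritic mice of Set 1 and 36.7 to 41.4 CPM in its young mice. Its log2 change was 0.68 (SE 0.16, adjusted p = 0.00437) in Set 1 and 0.07 (SE 0.15, adjusted p = 0.742) in Set 2, and the difference of -0.61 (SE 0.24) had an adjusted p of 0.0455. In Set 1 alone 7 of 10 members passed (59.1% of all genes), with Nqo1 (-0.60, SE 0.20, adjusted p = 0.0232), Gsr (-0.47, SE 0.15, adjusted p = 0.0174) and Slc7a11 (1.61, SE 0.42, adjusted p = 0.00702) beside the 4 above. In Set 2 alone 2 of 10 passed (38.7% of all genes), Nfe2l2 (0.25, SE 0.06, adjusted p = 0.00341) and Slc7a11 (1.78, SE 0.37, adjusted p = 0.00175).

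For Nfe2l2, 7 of 8 nephritic mice of Set 2 lay above all its young mice, while in Set 1 the log2 change was 0.02 (SE 0.13, adjusted p = 0.909). The difference between the sets did not pass for Nfe2l2 (adjusted p = 0.185), Nqo1 (0.0952), Gsr (0.0947) or Slc7a11 (0.813). Over all time points of Set 2 (46 mice), 3 of 10 members and 55.9% of all genes passed. Nfe2l2 (log2 change 0.16, adjusted p = 0.000142), Slc7a11 (1.47, adjusted p = 2.14e-07) and Nqo1 (-0.17, adjusted p = 0.0397) passed, and Gclc (-0.16, adjusted p = 0.0776), Srxn1 (0.13, adjusted p = 0.0693) and Gclm (-0.10, adjusted p = 0.186) did not. Proximal tubule markers also differed by set. Their sum was 15748 to 17560 CPM in young and 2384 to 9237 CPM in nephritic mice of Set 1, and 13449 to 16919 CPM and 3623 to 15171 CPM in Set 2, and 8 of 8 markers were lower in Set 1 and 2 of 8 in Set 2. Their part in the differences between the sets was not tested.

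**Figure D2:**
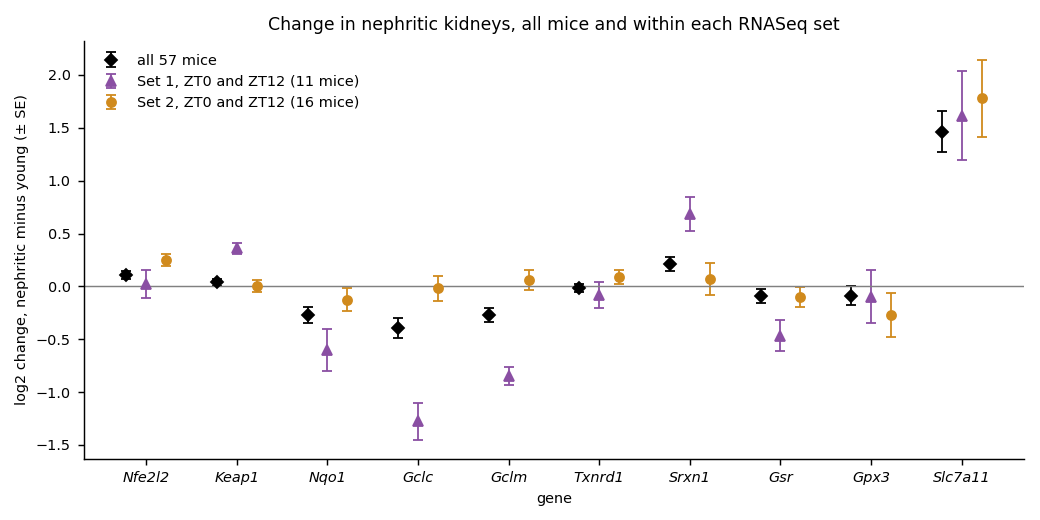
Log2 change of each gene, nephritic minus young, with its SE (bars), in all 57 mice (diamonds), in the 11 Set 1 mice (triangles) and in the 16 Set 2 mice (circles) of ZT0 and ZT12. Gclc stood at -1.28 in Set 1 and -0.02 in Set 2, whereas Slc7a11 was above 0 in each.

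The test over time points asks which of the genes vary over the day. In young kidneys, 3 of 10 members passed, Gclm (adjusted p = 0.0045), Gsr (0.0114) and Gclc (0.0162), where 39.8% of 16521 genes passed. In nephritic kidneys 2 of 10 passed, Gclm (adjusted p = 0.00963) and Slc7a11 (0.0449), where 21.6% of 16872 genes passed. Slc7a11 lost this call without any 1 of 18 of the 27 mice (adjusted p 0.0509 to 0.100, the highest without RX11RU) and kept it when HIL5LL, RX10LU, RX12RU, RX12LL, RX12RL, RX9RL, RX10RL, RX8LL or RX7LL was the mouse left out. Keap1 (adjusted p = 0.524 in the young and 0.119 in the nephritic group), Nfe2l2 (0.379 and 0.554), Nqo1 (0.076 and 0.854) and Srxn1 (0.116 and 0.0892) did not pass. In young mice Nqo1 passed without ZT8LU, ZT00 or ZT4RU and Srxn1 without ZT12RU, and in nephritic mice Srxn1 passed without CRS6LL or HIL5LL.

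Gclc in young mice was 178, 180, 182 and 196 CPM at ZT4 and 228, 253, 343 and 347 CPM at ZT16, its lowest and highest time points once the set was taken out. These hours were picked from the same values, so their separation is partly set by the choice and is not a test. The ZT16 mice ZT16RU (228 CPM) and ZT160 (347 CPM) had libraries with adrenal genes, and all such young libraries but ZT0RU were of ZT12, ZT16 or ZT20. Without them, edgeR's test over time in young mice gave an adjusted p of 0.0388 for Gclc, 0.00414 for Gclm and 0.00718 for Gsr, where 28.5% of all genes passed. A 24 h cosine was fitted to the log2 CPM of all mice, libraries with adrenal genes included. For Gclc its amplitude was 0.36 (SE 0.08) in the young and 0.08 (SE 0.07) in the nephritic group. The edgeR test of a difference in time course did not pass for Gclc (adjusted p = 0.432). Gclm in young mice was likewise lowest at ZT4, where its 4 values were 182, 193, 200 and 211 CPM, and highest at ZT20. Its amplitude was 0.19 (SE 0.04) in the young and 0.13 (SE 0.08) in the nephritic group. In nephritic mice Gclm was 218, 219, 230 and 275 CPM at ZT4 and 140, 157 and 166 CPM at ZT16. At ZT4 all 4 nephritic mice were above the 4 young mice, and at ZT16 all 3 were below the 231, 234, 238 and 259 CPM of the young mice. How many of all genes lacked overlap at these hours was not counted. In edgeR's test at each hour over all mice, Gclm did not pass at ZT4 (log2 change 0.22, adjusted p = 0.299) and passed at ZT16 (-0.64, 0.00737). Gsr in young mice was 207, 220, 231 and 233 CPM at ZT4 and 146, 155, 159 and 165 CPM at ZT8, its highest and lowest time points, again picked from the same values. Gsr was thus highest at the hour at which Gclc and Gclm were lowest. In nephritic mice Gsr was 192, 194, 198 and 214 CPM at ZT4 and 153, 176, 202 and 233 CPM at ZT8.

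In the interaction of group with time point, which tests the difference in time course itself, 0 of 10 members passed, where 6.27% of 17521 genes passed. Unadjusted p was under 0.05 for 4641 genes in all and for 3 members, Gclm (adjusted p = 0.103), Keap1 (0.18) and Gsr (0.18). Gclm passed in Set 2 alone (adjusted p = 0.00661) and without the 8 libraries with adrenal genes (0.0463). A member that missed this test is not shown to keep its time course.

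**Figure D3:**
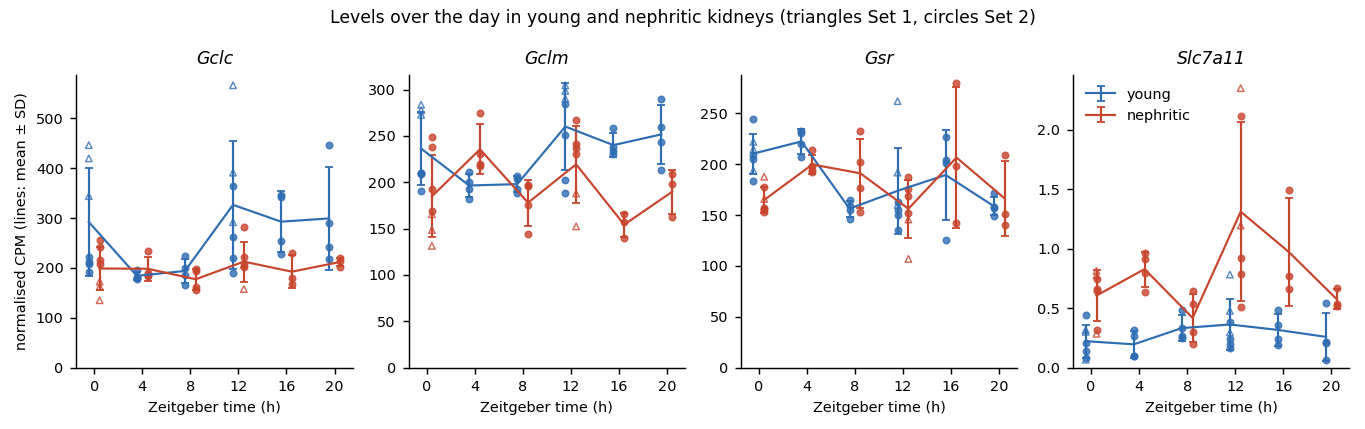
Normalised CPM (y axis, from 0) of Gclc, Gclm, Gsr and Slc7a11 at each Zeitgeber time (x axis, hours) in young and nephritic kidneys, with triangles for Set 1, circles for Set 2 and lines for the mean ± SD. The mean of Gclm in nephritic kidneys was above that of young kidneys at ZT4, where the fit of all mice did not pass the threshold. It was below at ZT16, where that fit passed. The nephritic Slc7a11 values were widest at ZT12.

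Time point by time point, 12 of the 60 tests of a member at an hour passed, 6 higher and 6 lower in nephritic mice, against 24.4% of all such tests of all genes. At ZT0, 6 of 10 members passed (39.5% of all genes). These were Slc7a11 (log2 change 1.43, adjusted p = 0.003), Srxn1 (0.52, 0.0014), Nfe2l2 (0.20, 0.0384), Gclc (-0.50, 0.0262), Gclm (-0.37, 0.0142) and Gsr (-0.36, 0.0194). In Set 2 alone at ZT0 the log2 change was 0.15 for Gclc (adjusted p = 0.525) and 0.05 for Gclm (0.757), the opposite direction, while Gsr (-0.38, 0.0379), Srxn1 (0.37, 0.0344) and Nfe2l2 (0.29, 0.00816) passed there too.

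At ZT4, 1 of 10 passed (30.3% of all genes). This was Slc7a11, with 0.096, 0.100, 0.265 and 0.319 CPM in young mice and 0.635, 0.797, 0.915 and 0.963 CPM in nephritic mice, a log2 change of 2.05 (SE 0.51, adjusted p = 0.00228). At ZT8, 0 of 10 passed (3.66% of all genes) and the lowest adjusted p was 0.416, that of Gsr. The Slc7a11 levels overlapped at this hour, at 0.244 to 0.486 CPM in young and 0.197 to 0.640 CPM in nephritic mice.

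At ZT12, 3 of 10 passed (50% of all genes), Slc7a11 (log2 change 1.89, adjusted p = 4.69e-05), Gclc (-0.56, 0.013) and Nqo1 (-0.39, 0.0359). In Set 2 alone at ZT12, Slc7a11 passed (2.09, 0.00135), and Gclc (-0.20, 0.379) and Nqo1 (-0.01, 0.974) did not. Nqo1 also missed the threshold at this hour with repeat libraries (-0.32, 0.103) and with no set covariate (-0.35, 0.0597). At ZT16, 2 of 10 passed (17.7% of all genes), Gclm (-0.64, SE 0.18, adjusted p = 0.00737) and Slc7a11 (1.61, SE 0.51, adjusted p = 0.0235). All mice of this hour belong to Set 2, so the fall of Gclm at ZT16 did not rest on Set 1. A fit of Set 2 alone gave -0.61 (adjusted p = 0.000325) for Gclm and -0.58 (adjusted p = 0.0167) for Gclc. The young ZT16 mice ZT16RU and ZT160 had libraries with adrenal genes, and this hour was not refitted without them. At ZT20, 0 of 10 passed (5.48% of all genes), with the lowest adjusted p, 0.165, for Gclm (log2 change -0.42). In Set 2 alone Gclm passed at ZT20 (-0.39, adjusted p = 0.0423) and, in the higher direction, at ZT4 (0.29, adjusted p = 0.043).

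Remission kidneys were compared with the 13 nephritic and the 14 young kidneys of ZT0 and ZT12. These comparisons share the remission mice. The run assumed for them cannot be told apart from the group, unless mice with a library in each run serve as a bridge. Against nephritic kidneys, Gclc, Gclm and Nqo1 were higher in remission, so that 3 of 10 members passed. Of all 16344 genes, 35.8% passed in either direction and 16.8% passed in the higher direction. Gclc was 175, 270 and 425 CPM (lowest, median and highest) in remission mice, against 135 to 257 CPM at ZT0 and 158 to 282 CPM at ZT12 in nephritic mice. The log2 change of Gclc was 0.50 (SE 0.14, adjusted p = 0.00974). Gclm was 225, 239 and 298 CPM in remission mice, and all 8 lay above the median of the 27 nephritic mice (log2 change 0.35, SE 0.12, adjusted p = 0.0299). Nqo1 was 34.4, 38.8 and 50.4 CPM in remission mice, likewise all above the nephritic median (0.42, SE 0.15, adjusted p = 0.035). Gclm lost its call without any 1 of HIL5LL, RX10LU, s1, s10 or s3, and Nqo1 without any 1 of CRS6LU, HIL5LL, RX10LU, RX11RU, RX12RU, s1, s10, s3 or s9. Txnrd1 (-0.21, SE 0.08, adjusted p = 0.0589) passed when CRS6LU, HIL5RU or s10 was left out.

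Against the nephritic mice of Set 2 alone, other members passed. Gclc (log2 change 0.31, adjusted p = 0.0724), Nqo1 (0.26, 0.0829) and Gclm (0.15, 0.232) did not pass there, and Nfe2l2 (-0.23, 0.00745) and Txnrd1 (-0.26, 0.00586) were lower. With a run covariate carried by the 4 mice that have a library in each run, 0 of 10 passed, where 22.9% of all genes did, at log2 changes of 0.64 for Gclc (adjusted p = 0.0735), 0.41 for Gclm (0.0643), 0.47 for Nqo1 (0.06) and -0.00 for Txnrd1. This fit held no term for mouse or set, so both libraries of a mouse entered as if from separate mice. The 4 mice were all of Set 2, whereas the run term compared their repeats with original libraries of both sets. Its values are thus not differences within mice. Without both libraries of RX11RU, Gclm (0.51, adjusted p = 0.0495) and Nqo1 (0.63, 0.0323) passed.

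Slc7a11 was 0.099, 0.712 and 1.13 CPM in remission mice and did not differ from nephritic mice beyond its error (log2 change -0.32, SE 0.33, adjusted p = 0.465). Against young mice it was higher in remission (1.29, SE 0.33, adjusted p = 0.00246), and 7 of 8 remission mice lay above the young median. Txnrd1 was 159, 173 and 213 CPM in remission mice, 5 of 8 of them below the range of the 30 young mice, with a log2 change of -0.20 (SE 0.05, adjusted p = 0.00201). These 2 of 10 members passed against young mice, where 53% of 15982 genes passed. With the run covariate, Txnrd1 had a log2 change of 0.00 (adjusted p = 0.988), Slc7a11 of 1.34 (adjusted p = 0.074), and of the members Keap1 alone passed (0.23, adjusted p = 0.0476), where 13.1% of all genes passed. Gsr missed the threshold against young mice (-0.21, SE 0.09, adjusted p = 0.0533) and passed without s9, ZT12RU, ZT12RL, ZT120 or ZT0RL (adjusted p 0.0231 to 0.0475). The threshold was also missed by Gclc (-0.11, SE 0.20, adjusted p = 0.672) and Gclm (0.03, SE 0.10, adjusted p = 0.827). Against Set 2 young mice alone, Gclm was higher in remission (0.21, adjusted p = 0.049).

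Between ZT0 and ZT12 in remission mice, 0 of 10 members and 0% of 14451 genes passed edgeR's test. Over all genes 1449 had an unadjusted p under 0.05 and DESeq2 called 24, while without s9 edgeR called 202 of 14316 genes and again 0 members. Gclc came closest among the members, at 242, 288, 350 and 425 CPM at ZT0 and 175, 262, 267 and 272 CPM at ZT12 (log2 change -0.42, ZT12 minus ZT0, SE 0.19, adjusted p = 0.496). Of the 8 proximal tubule markers, 7 were lower in remission than in young mice (median log2 change -0.77) and 1 was higher than in nephritic mice. The 4 endothelial markers were all higher in remission than in nephritic (median 0.68) and young mice (0.51). Of the 5 tubular injury markers, 3 were lower than in nephritic mice (median -1.89) and 5 higher than in young mice (1.45), and of the 6 macrophage and myeloid markers 2 were lower and 1 higher than in nephritic mice and 6 higher than in young mice. Their part in the remission changes of the members was not tested.

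**Figure D4:**
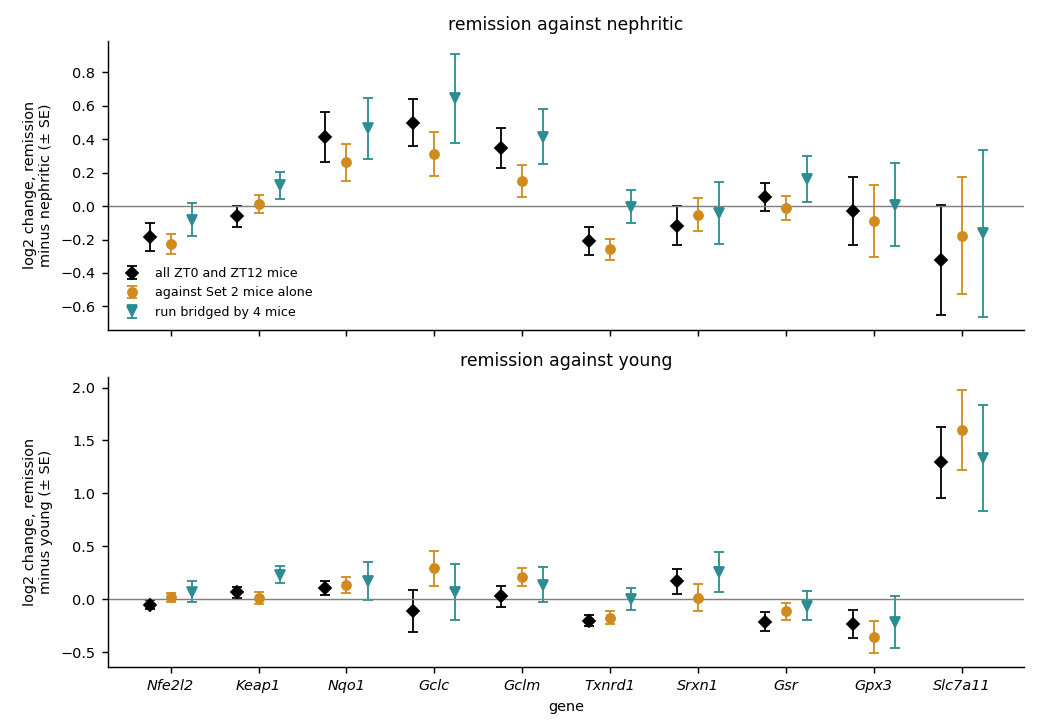
Log2 change of each gene with its SE (bars), remission minus nephritic (upper panel) and remission minus young (lower panel), against all ZT0 and ZT12 mice (diamonds), against Set 2 mice alone (circles) and with the run bridged by 4 mice (triangles). Gclc, Gclm and Nqo1 lay above 0 in the upper panel in all 3 fits, at 0.15 to 0.64, and Txnrd1 moved from -0.20 to 0.00 in the lower panel when the run was bridged.

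Nephritic mice differed widely in tubular injury, which allowed the members to be read against it within the group. Neither hour nor set was taken out of these relations. Havcr1 (Kim-1) and Lcn2 (NGAL), genes that injured tubules induce, ranged from 21.3 to 1122 CPM and from 4.77 to 708 CPM over the 27 nephritic mice. Against their mean log2 CPM, Gpx3 fell (r = -0.68, adjusted p = 0.0007 by a permutation test over the 10 members, rho = -0.64, adjusted p = 0.0021). Without the 2 mice farthest from the median r was -0.61 (adjusted p = 0.0056), and in the 22 Set 2 mice it was -0.69 (adjusted p = 0.0041). Nqo1 fell in the same way (r = -0.65, adjusted p = 0.00075, rho = -0.64, adjusted p = 0.0021), with -0.61 without those 2 mice (adjusted p = 0.0056) and -0.62 in Set 2 (adjusted p = 0.011). So Gpx3, whose difference between the groups did not pass the threshold, varied with injury inside the nephritic group. Relations with injury were not computed over all genes, so how usual such values of r are in these kidneys is not given.

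Srxn1 was higher in mice with more injury by Pearson's r (0.47, permutation adjusted p = 0.0421) but not by rank (rho = 0.28, adjusted p = 0.309), at 0.52 without the 2 farthest mice (adjusted p = 0.0205) and 0.36 in Set 2 (adjusted p = 0.241). Nfe2l2 (r = 0.41, permutation adjusted p = 0.0782, rho = 0.34, adjusted p = 0.209) and Keap1 (r = 0.39, adjusted p = 0.0884, rho = 0.41, adjusted p = 0.121) did not pass. The mice with the highest injury means, CRS60 (9.55), RX12RU (9.20) and RX10LU (9.10), were all of ZT0. At that hour nephritic Srxn1 (mean 64.2 CPM) and Nfe2l2 (mean 129 CPM) were highest, and the part of the hour was not tested. Gclc (r = -0.16, rho = -0.14) and Gclm (r = -0.14, rho = -0.13) had adjusted permutation p-values over 0.5. Proximal tubule markers fell with the same injury genes (r = -0.80, rho = -0.80, permutation p = 1e-05 for each, the smallest the test can give) and macrophage markers rose (r = 0.67, permutation p = 0.00012, rho = 0.67, p = 0.00017). Their part in the relations of Gpx3 and Nqo1 was not tested.

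**Figure D5:**
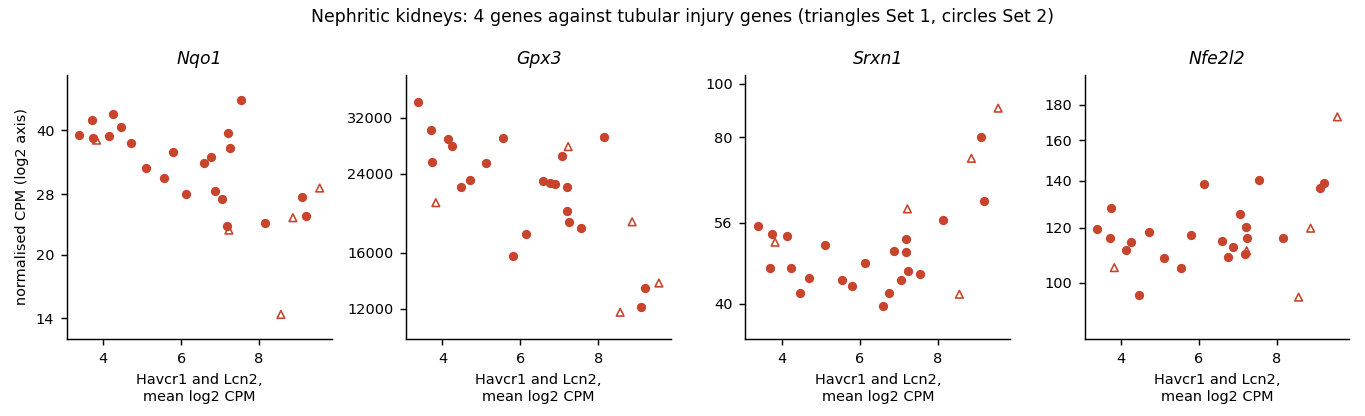
Normalised CPM (y axis, log2 scale) of Nqo1, Gpx3, Srxn1 and Nfe2l2 in the 27 nephritic kidneys against the mean log2 CPM of Havcr1 and Lcn2 (x axis), with triangles for Set 1 and circles for Set 2. Nqo1 (r = -0.65) and Gpx3 (r = -0.68) sloped downward.

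Once group by hour and a set term common to both groups were taken out, members were compared with each other from mouse to mouse. The differences between the sets in the nephritic change of Gclc, Gclm, Keap1 and Srxn1 thus stayed in these values. Their part in the relations was not tested. Values for Set 2 come from the same fit. Pairs of other genes were not computed, so how usual such relations are in whole-kidney RNA is not given. Of 45 pairs over the 57 young and nephritic mice, 17 passed a permutation test on r after adjustment, and 15 did so in Set 2 alone. Gclc and Gclm, which encode the subunits of the same enzyme, had the closest relation (r = 0.82, rho = 0.81, adjusted p = 0.00015 for each), at 0.79 in young and 0.90 in nephritic mice and 0.84 without the 2 farthest mice. Txnrd1 and Gsr, homologous NADPH-dependent flavoenzymes, followed (r = 0.73, rho = 0.67, permutation adjusted p = 0.00015 for each), at 0.69 without the 2 farthest mice and 0.72 in Set 2. Nfe2l2 was related to Txnrd1 (r = 0.58, rho = 0.48, permutation adjusted p = 0.00015 and 0.00172) and not to Gclm (r = 0.23, rho = 0.23, adjusted p = 0.147 and 0.145). Keap1 ran in the opposite direction to several members, Gclm (r = -0.54, rho = -0.58), Gclc (r = -0.49, rho = -0.45), Nfe2l2 (r = -0.48, rho = -0.55) and Nqo1 (r = -0.45, rho = -0.47), all with adjusted permutation p-values at or under 0.00225. Without the 2 farthest mice these 4 values of r were -0.53, -0.43, -0.58 and -0.49. In Set 2 they were -0.40, -0.37, -0.57 and -0.44. Slc7a11 was related to no other member at this depth, with r between -0.21 and 0.17.

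Around the members, the other 63 genes of the pathway were read from 7 lists in the same nephritic against young test. Each list had more genes lower than higher, where 33.9% of all genes were lower and 28.1% higher and 8 of 8 proximal tubule markers were lower. Of 17 detoxification enzymes and transporters, 14 were lower and 2 higher, of 11 genes of the thioredoxin system and peroxiredoxins 8 were lower and 1 higher, and of 10 tested genes of glutathione supply and glutathione peroxidases 6 were lower and 3 higher. All 4 genes of superoxide and hydrogen peroxide removal were lower, and of 6 NADPH supply genes 4 were lower and 2 higher. Of 10 regulators and partners of NRF2, 4 were lower and 2 higher, and of 4 heme and iron genes 2 were lower and 1 higher. The median log2 change ran from -0.52 for superoxide and hydrogen peroxide removal to -0.03 for the regulators, near that of all genes.

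The largest changes on these lists ran in both directions. Cat, catalase, was 819, 963 and 1164 CPM (lowest, median and highest) in young mice and 164, 622 and 968 CPM in nephritic mice (log2 change -0.77, SE 0.11, adjusted p = 2.02e-08). Abcc3, an organic anion exporter, fell by 0.77 (adjusted p = 1.19e-05) and Gsta2, a glutathione transferase, fell by 0.63 (adjusted p = 3.3e-05) on the log2 scale. Gstm3, another glutathione transferase, was 0.029, 0.183 and 3.09 CPM in young mice and 0.032, 0.144 and 0.308 CPM in nephritic mice, near the floor of detection, and fell by 0.93 (adjusted p = 0.0129). Hmox1, heme oxygenase 1, which macrophages also express, was 9.46, 12.8 and 19.5 CPM in young and 11.6, 24.0 and 134 CPM in nephritic mice (log2 change 1.29, SE 0.16, adjusted p = 7.57e-10). Maff, a small MAF partner of NRF2, rose by 1.53 (adjusted p = 1.02e-09), Gpx7, a peroxidase of the endoplasmic reticulum, by 0.85 (adjusted p = 2.19e-07) and Cbr3, a carbonyl reductase, by 0.78 (adjusted p = 2.6e-10).

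In remission, Hmox1 was 12.7, 14.3 and 25.3 CPM and fell by 1.53 against nephritic mice (adjusted p = 0.00279), Maff fell by 1.14 (adjusted p = 0.0449), and Abcc3 rose by 1.37 (adjusted p = 0.000122). Cat did not differ from nephritic mice beyond its error (log2 change 0.15, SE 0.29, adjusted p = 0.711) and stayed lower than in young mice (-0.62, SE 0.09, adjusted p = 4.11e-06). Cbr3, like Slc7a11 among the members, was higher than in young mice (0.91, SE 0.14, adjusted p = 1.46e-05). The list genes were fitted without the run covariate, with which Slc7a11 missed the threshold against young mice. Run and group thus cannot be told apart for the list genes.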

How the data were processed

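The authors sequenced kidney RNA (paired ends, 150 bases), described a Burrows-Wheeler alignment, counted unique reads, and deposited the counts for each gene symbol, whole numbers that were not normalized. The submitters' processing notes name HISAT and mm10. Of 24538 symbols per library, 15 with empty cells were left out. Groups, times and mice came from the sample labels, and the RNASeq sets from the titles matched to the study's sample table. The remission run was inferred, since the labels give no batch. The members and lists were chosen with earlier results of these data known.

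Counts were analysed in R 4.3.3 with edgeR 4.0.16 (TMM factors, trended dispersion, quasi-likelihood F test, genes with at least 100 counts over the fit, Benjamini-Hochberg over all genes, threshold 0.05). Covariates were time point and set for young and nephritic mice, and time point for remission mice. Fits with a run covariate held time point, run and group, with no term for set or mouse. SE is the log2 change divided by the root of F. limma 3.58.1, DESeq2 1.42.0, RLE factors, no filter, Set 2 alone, no set covariate, repeat libraries, run covariates and leaving out each mouse were alternatives. Fits by set and without adrenal libraries, and the bridge by 3 mice, were added after seeing the data. Log2 CPM used a prior count of 2, and permutation tests 100000 resamples, two-sided. Set difference is Set 2 minus Set 1. Libraries of a group differed beyond sampling noise, and the total counts of 13311278 to 48075977 per library leave counting error small for all members but Slc7a11. Gene lengths came from GENCODE exons of GRCm38. The scripts were tested on simulated data. Named genes were the members, the 4 list genes with the largest change each way, Hmox1, Havcr1 and Lcn2.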

Additional observations from a re-analysis of the deposited data

Results flagged for a closer look

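Of 130 groups of values (10 genes, by group and hour where 4 or more mice were taken, and over all 8 remission mice), 10 had a mouse far from the rest, and chance alone marks about 1 in 20. In young mice these were ZT00 at ZT0 for Srxn1 (59.6 CPM, the others 38.3 to 46.6) and for Txnrd1 (240.4 CPM, the others 188 to 208), ZT8LL at ZT8 for Txnrd1 (201 CPM, the others 192 to 193) and ZT20LU at ZT20 for Keap1 (60.5 CPM, the others 72.9 to 75.0), the last of which is 1 of the libraries with adrenal genes. In nephritic mice they were CRS60 at ZT0 for Txnrd1 (256 CPM, the others 185 to 212), HIL5RU at ZT12 for Txnrd1 (144 CPM, the others 208 to 245), HIL5LL at ZT12 for Srxn1 (73.3 CPM, the others 41.6 to 52.5) and RX1OLL at ZT4 for Gclc (234 CPM, the others 184 to 189). In remission mice they were s12 at ZT12 for Gclc (175 CPM, the others 262 to 272) and s10 at ZT12 for Srxn1 (61.7 CPM, the others 46.0 to 47.1).

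The change from young to nephritic kidneys at ZT0 and ZT12 differed between the RNASeq sets for 4 of 10 members by a test of the difference itself in edgeR. The difference, Set 2 minus Set 1 on the log2 scale, was 1.26 for Gclc, 0.91 for Gclm, -0.35 for Keap1 and -0.61 for Srxn1. Sets differ in the mice they hold. Any difference in their sequencing, which the labels do not give, cannot be told apart from that here.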

How the results depend on the processing

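No paired analysis was possible because the labels give mice no replicate numbers that link groups. For nephritic against young, 6 members passed, 3 in Set 2 alone and 2 in Set 2 at ZT0 and ZT12, where Gclm turned to 0.063. At ZT0 in Set 2 alone Gclc turned to 0.15 and Gclm to 0.052. Leaving out each mouse gave 6 to 7 (Keap1 was added without RX1OLL, RX100 or ZT0RL). For time in nephritic mice 2 passed, 1 under limma, no filter or repeat libraries, 4 under DESeq2 and 1 to 3 leaving out each mouse. For time in young mice the range was 3 to 4. For a different rhythm 0 passed, 1 in Set 2 alone, 1 without adrenal libraries and 0 leaving out each mouse. Remission against nephritic gave 3, 0 with the run bridged by 4 mice and 1 to 5 leaving out each mouse (5 without HIL5RU). Remission against young gave 2, 1 bridged by 4 mice (Txnrd1 turned to 0.0038), 0 bridged by 3, and 2 to 4 leaving out each mouse (4 without ZT120). ZT0 against ZT12 stayed at 0 members (over all genes 0 passed, 202 without s9). The cause of these shifts was not tested. Over all genes, 3646 passed for time in nephritic mice (1994 without the set covariate, 5646 under DESeq2) and 1099 for a different rhythm (2186 under DESeq2, 1715 in Set 2 alone, 693 with repeats, 638 to 1771 leaving out each mouse). Depth limits Slc7a11, with as few as 2 counts in a library.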
